A study of Mus musculus with 12 samples.

Results

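The genes described here are 10 mouse genes of heme breakdown and iron handling: Hmox1, Hmox2, Blvra, Blvrb, Slc40a1, Fth1, Ftl1, Abcb6, Fech and Tfrc. They were taken by gene symbol with all of their probes on an Illumina mouse expression BeadChip, 17 of the 45281 probes, and they are 10 of the 30561 genes on the array. RNA came from VC1 cells, a lung adenocarcinoma line from a female A/J mouse, after 6 h with 0.05 µM CDDO-Im, 0.1 µM CDDO-Me, 15 µM DMF or DMSO, with 3 arrays per group. CDDO-Im is the imidazolide and CDDO-Me the methyl ester of the same synthetic oleanane triterpenoid, DMF is dimethyl fumarate, and the series title calls these agents NRF2 activators. All 4 groups are 1 line in culture with no engineered allele stated, and DMSO is the solvent control. The design text sets 0.1 µM beside CDDO-Im where the titles and treatment protocol set it beside CDDO-Me, and the titles were followed. Doses differ between the compounds, so differences between treatments below are differences between these doses and not between equal amounts. Whether replicates were separate cultures is not stated, so the p-values rest on array-to-array spread that may be only technical.

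Heme oxygenases open the heme ring and release iron, carbon monoxide and biliverdin, which biliverdin reductases turn into bilirubin. The freed iron is stored in ferritin, a shell of heavy and light chains, or leaves the cell through ferroportin, and new iron enters bound to transferrin through the transferrin receptor. Hmox1 is a textbook target of NRF2 and of the repressor BACH1, which leaves DNA when it binds heme, whereas ferritin and the transferrin receptor are also controlled after transcription by iron regulatory proteins, a layer that RNA levels show only in part.

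Signals are given as log2 of the background-corrected, quantile-normalized intensity of the brightest kept probe of each gene, and differences as log2 differences with their standard error (SE) from limma. All 10 genes passed the filter on detection, through 15 of their 17 probes, and were tested among 13280 genes. Signals of different probes are not compared with each other, because brightness depends on the probe. CDDO-Im replicate 2 and DMSO replicate 1 stood apart: their median correlations with the other arrays were 0.935 and 0.915, against 0.99 to 0.995 for the rest, and they were dimmer, with a mean raw intensity of 457.2 and 439.6 where the rest had 551.6 to 683.7. Results are therefore given for all 12 arrays and again for the other 10, in which CDDO-Im and DMSO have 2 arrays each. The arrays lay on 2 chips that each held all groups, and chip was a term in the 12-array and 10-array fits. Chip 1 held 2 CDDO-Im, 1 CDDO-Me, 1 DMF and 2 DMSO arrays, among them both arrays that stood apart. Chip 2 held 1 CDDO-Im, 2 CDDO-Me, 2 DMF and 1 DMSO array. Differences within a chip therefore rest on 1 or 2 arrays per group. Of 6 lung epithelial markers 4 were detected on every array (Cdh1, Krt8, Krt18 and Nkx2-1), while Epcam and Sftpc were detected on none. Of 6 macrophage and leukocyte markers none was detected on every array and 4, among them Ptprc and Adgre1, on no array; the summed raw signal of that list was 436 to 511.6 with CDDO-Im, 477.2 to 577.9 with CDDO-Me, 476.7 to 565.3 with DMF and 466.1 to 608.2 with DMSO. Of 6 erythroid markers none was detected on every array, and Alas2, for one, was detected on none. In bulk RNA, fewer cells that express a gene and less RNA per cell cannot be told apart.

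The response was uneven along the pathway. Against DMSO, Hmox1, Blvrb, Slc40a1 and Abcb6 were higher with CDDO-Im and with CDDO-Me, and Blvrb was higher with DMF, while Hmox2, Blvra, Fth1, Ftl1 and Tfrc were not called with any treatment. In the fit of 12 arrays, 4 of the 10 genes were called higher with CDDO-Im at a limma adjusted p under 0.05, where 1.42% of all genes were called higher, and 0 were called lower, where 0.392% of all genes were. With CDDO-Me 4 were called higher against 1.02% of all genes, and 0 lower against 0.399%. With DMF 1 was called higher against 0.324% of all genes, and 0 lower against 0.0226%. With only the 10 arrays the count was 5 higher and 0 lower with each treatment, since Fech was added with all of them and Hmox1, Slc40a1 and Abcb6 with DMF. The shares of all genes called higher were then 5.75% with CDDO-Im, 5.55% with CDDO-Me and 4.16% with DMF, and those called lower were 5%, 5.54% and 4.26%. The median log2 difference of the 10 genes was 0.16 with CDDO-Im, 0.25 with CDDO-Me and 0.15 with DMF in the 12 arrays, beside medians over all genes of 0.06, -0.00046 and -0.0039. In the 10 arrays the medians were 0.37, 0.46 and 0.34, beside -0.02 over all genes with each treatment. Groups that did not overlap were common over all genes. With CDDO-Im, CDDO-Me and DMF, all arrays lay above all DMSO arrays for 8.47%, 11.8% and 11.2% of genes. They lay below them for 5.67%, 13.9% and 14.7%. Of the 10 members, 4, 5 and 6 lay above and 0, 1 and 0 below.

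**Figure D1:**
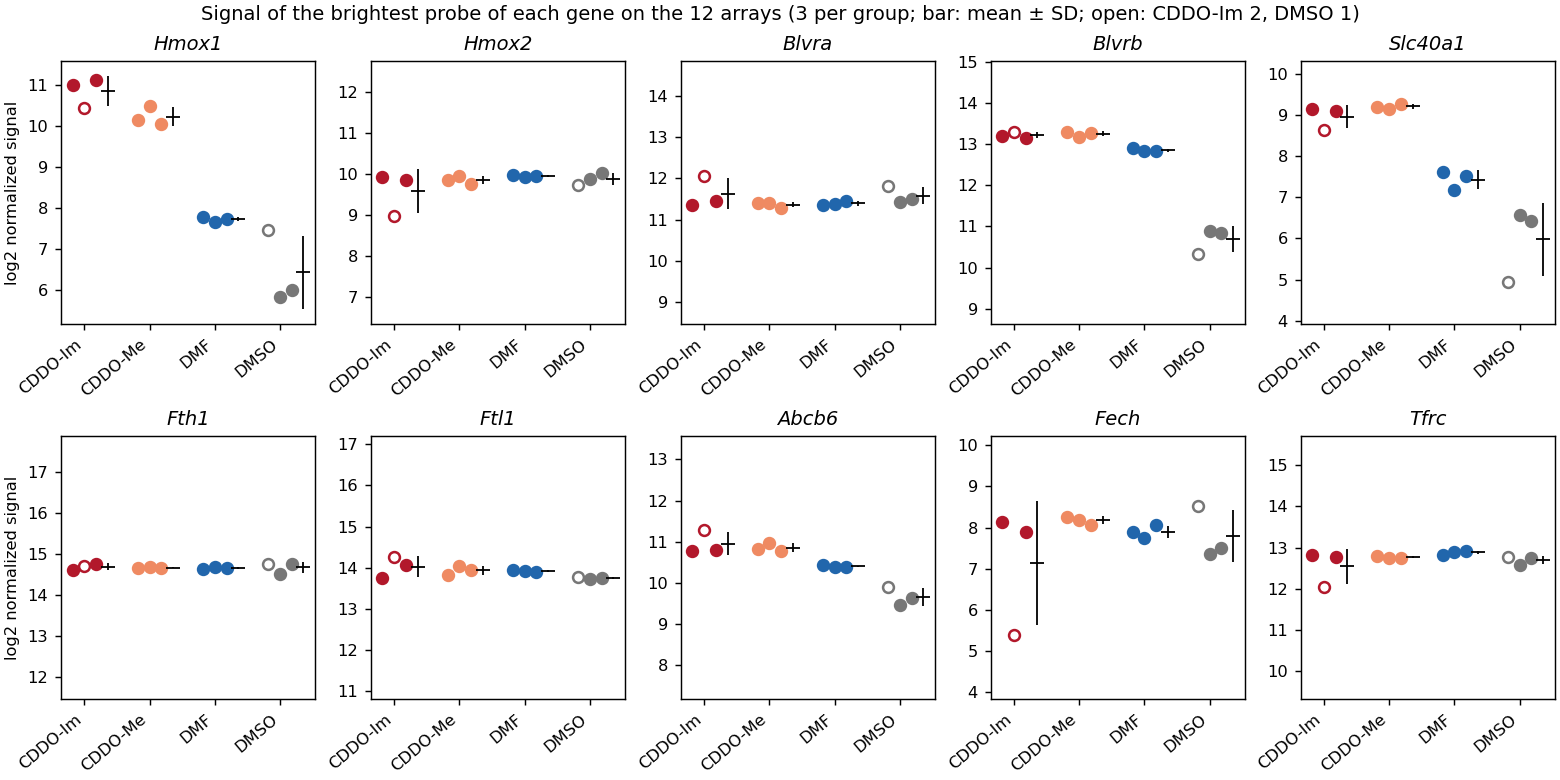
Log2 normalized signal of the brightest probe of each of the 10 genes on the 12 arrays, 1 panel per gene, each panel spanning the same height on the log2 scale; points are arrays, bars are the group mean ± SD (n = 3), and open points are CDDO-Im replicate 2 and DMSO replicate 1. Hmox1, Blvrb, Slc40a1 and Abcb6 lie higher in all treated groups than in DMSO, with Hmox1 in DMF close to the open DMSO point.

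Of the heme oxygenases, Hmox1 rose with both CDDO compounds and Hmox2 was not called. Hmox1, the inducible heme oxygenase, had log2 signals of 10.99, 10.43 and 11.11 with CDDO-Im, 10.14, 10.49 and 10.04 with CDDO-Me, 7.77, 7.67 and 7.74 with DMF, and 7.47, 5.83 and 6.01 with DMSO. Every treated array lay above every DMSO array, the DMF arrays only just above DMSO replicate 1, which was the bright exception among the DMSO arrays. The same probe gave raw intensities of 2192.2, 1033 and 2224.1 with CDDO-Im, 1346.2, 1739.8 and 1276.1 with CDDO-Me, 303.7, 289.9 and 289.3 with DMF, and 193.3, 106.1 and 113.6 with DMSO. The difference from DMSO was 4.41 ± 0.38 with CDDO-Im, a 21.2-fold rise (limma adjusted p = 0.0003, n = 3 arrays each). With CDDO-Me it was 3.80 ± 0.40, a 13.9-fold rise (limma adjusted p = 0.00112). With DMF it was 1.31 ± 0.40, or 2.47-fold, which did not pass (limma adjusted p = 0.44). The differences in the 10 arrays were 5.13 ± 0.14, 4.29 ± 0.13 and 1.79 ± 0.13, and that with DMF was called (limma adjusted p = 0.000153). Leaving out DMSO replicate 1 alone was enough for that call (1.78, limma adjusted p = 0.00622). DMSO replicate 1 lay 1.54 above the mean of the other DMSO arrays, which differed from each other by 0.18. Within chip 1 and chip 2 the difference was 4.06 and 5.10 with CDDO-Im, 3.49 and 4.25 with CDDO-Me, and 1.13 and 1.69 with DMF. The order was the same on both, with only 1 or 2 arrays per group on each. In the authors' normalized matrix the Hmox1 difference was smaller, 2.83 with CDDO-Im, 2.23 with CDDO-Me and 0.46 with DMF. Hmox2, the constitutive heme oxygenase, had log2 signals of 9.91, 8.98 and 9.86 with CDDO-Im, 9.85, 9.93 and 9.75 with CDDO-Me, 9.97, 9.93 and 9.93 with DMF, and 9.73, 9.87 and 10.01 with DMSO. The groups overlapped apart from CDDO-Im and DMF, and the single low value was that of CDDO-Im replicate 2. Its difference from DMSO was -0.29 ± 0.23 with CDDO-Im, -0.07 ± 0.23 with CDDO-Me and 0.03 ± 0.23 with DMF, with limma adjusted p-values of 0.563, 0.921 and 0.971. Its 95% intervals in the 10 arrays were -0.26 to 0.14, -0.28 to 0.09 and -0.18 to 0.19, which leave out any Hmox2 change near the size of the Hmox1 rise.

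Of the biliverdin reductases, Blvrb rose with all 3 treatments and Blvra was not called. Blvrb, which reduces flavins and the biliverdin IX-beta isomer, had log2 signals of 13.21, 13.31 and 13.16 with CDDO-Im, 13.31, 13.18 and 13.27 with CDDO-Me, 12.90, 12.83 and 12.83 with DMF, and 10.32, 10.89 and 10.84 with DMSO. All 9 treated arrays lay far above all DMSO arrays, and the arrays of each treated group lay close together. The difference from DMSO was 2.54 ± 0.17 with CDDO-Im, 2.57 ± 0.17 with CDDO-Me and 2.17 ± 0.17 with DMF, or 5.81-fold, 5.94-fold and 4.49-fold, with limma adjusted p-values of 4.45e-05, 6.87e-05 and 0.00054. Among the 10 genes Blvrb had the largest difference with DMF, and with all 12 arrays no other was called there. A second Blvrb probe gave 2.64 ± 0.23, 2.42 ± 0.24 and 2.00 ± 0.24, so both probes moved alike. In the 10 arrays the brightest probe gave 2.32, 2.40 and 1.99, and within chip 1 and chip 2 it gave 2.65 and 2.31 with CDDO-Im, 2.70 and 2.39 with CDDO-Me, and 2.29 and 1.99 with DMF. Blvra, the main adult biliverdin reductase, had log2 signals of 11.36, 12.06 and 11.46 with CDDO-Im, 11.40, 11.41 and 11.29 with CDDO-Me, 11.35, 11.38 and 11.46 with DMF, and 11.81, 11.43 and 11.51 with DMSO. The highest values were those of the arrays that stood apart, and CDDO-Im and DMF overlapped DMSO while CDDO-Me lay just below it. The difference from DMSO was 0.04 ± 0.20, -0.19 ± 0.20 and -0.16 ± 0.20 with CDDO-Im, CDDO-Me and DMF (limma adjusted p = 0.92, 0.748 and 0.758), and in the 10 arrays -0.06, -0.11 and -0.08.

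The promoters of the reductases are shown with that of Abcb6, described further on, because Blvrb and Abcb6 were called higher and Blvra was not. They are the 250 bases before the annotated start on the gene's own strand, from RefSeq on GRCm38.p6, at chr2:127070407-127070656 on the plus strand for Blvra, chr7:27447728-27447977 on the plus strand for Blvrb and chr1:75180393-75180642 on the minus strand for Abcb6. Blvrb had more than 1 annotated start, and the outermost is shown. Lower case is sequence without a match, and capitals mark a match to TGACNNNGC, a short core of the antioxidant response element that NRF2 binds with small MAF proteins, searched on both strands.
Blvra: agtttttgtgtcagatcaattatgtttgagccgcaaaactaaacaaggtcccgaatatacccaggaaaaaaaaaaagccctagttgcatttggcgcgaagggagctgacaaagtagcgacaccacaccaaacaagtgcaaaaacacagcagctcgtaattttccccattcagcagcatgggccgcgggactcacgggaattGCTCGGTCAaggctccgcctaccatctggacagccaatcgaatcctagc
Blvrb: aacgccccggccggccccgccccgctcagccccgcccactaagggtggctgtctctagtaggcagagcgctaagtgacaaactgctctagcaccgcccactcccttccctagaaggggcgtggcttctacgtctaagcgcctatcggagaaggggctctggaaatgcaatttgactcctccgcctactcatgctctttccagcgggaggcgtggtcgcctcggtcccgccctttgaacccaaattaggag
Abcb6: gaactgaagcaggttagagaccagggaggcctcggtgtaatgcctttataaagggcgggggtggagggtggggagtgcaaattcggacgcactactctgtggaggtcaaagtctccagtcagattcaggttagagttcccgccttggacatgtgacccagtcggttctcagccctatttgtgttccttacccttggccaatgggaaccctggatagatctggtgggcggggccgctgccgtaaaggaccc
The single match lay in Blvra, 49 bases before the start and on the minus strand, where it read TGACCGAGC. Of 32851 promoter windows of 300 bases in the same table, from 250 before to 50 after the start, 4071 (12.4%) held the motif, and of 12 windows that covered 7 of the 10 genes 1 did. A match is a description of letters and not a bound site, and no match says only that these letters are not in this window. Hmox1, Slc40a1 and Fech had no entry in the table.

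Slc40a1 rose with both CDDO compounds, whereas the ferritin genes were not called. Slc40a1, ferroportin, the only known exporter of iron from mammalian cells, had log2 signals of 9.14, 8.65 and 9.10 with CDDO-Im, 9.21, 9.14 and 9.28 with CDDO-Me, 7.61, 7.18 and 7.51 with DMF, and 4.95, 6.57 and 6.41 with DMSO. The CDDO groups lay above DMF and DMF above DMSO with no overlap, and the lowest value was that of DMSO replicate 1, on which the probe was not detected; it was detected on the other 2 DMSO arrays and on all treated arrays. The difference from DMSO was 2.99 ± 0.37 with CDDO-Im, 3.18 ± 0.38 with CDDO-Me and 1.41 ± 0.38 with DMF, or 7.94-fold, 9.09-fold and 2.65-fold. The limma adjusted p-values were 0.00276, 0.00254 and 0.303. The 10 arrays gave 2.63 ± 0.12, 2.74 ± 0.11 and 0.96 ± 0.11, and DMF was called (limma adjusted p = 0.00232). DMSO replicate 1, which raised the DMSO mean of Hmox1, lowered that of Slc40a1, lying 1.54 below the other DMSO arrays. Within chip 1 and chip 2 the difference was 3.14 and 2.69 with CDDO-Im, 3.45 and 2.80 with CDDO-Me, and 1.85 and 0.93 with DMF. In the authors' normalized matrix it was 1.39, 1.54 and 0.46 with CDDO-Im, CDDO-Me and DMF, smaller as for Hmox1.

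Fth1, the ferritin heavy chain with ferroxidase activity, had log2 signals of 14.61 to 14.77 with CDDO-Im, 14.65 to 14.68 with CDDO-Me, 14.63 to 14.69 with DMF and 14.52 to 14.77 with DMSO. The treated arrays all lay within the DMSO range. Its difference from DMSO was 0.01 ± 0.13, -0.04 ± 0.13 and -0.04 ± 0.13 with CDDO-Im, CDDO-Me and DMF, and a second probe gave -0.06, -0.02 and -0.14. Ftl1, the ferritin light chain, had log2 signals of 13.76, 14.26 and 14.05 with CDDO-Im, 13.82, 14.04 and 13.93 with CDDO-Me, 13.94, 13.91 and 13.89 with DMF, and 13.78, 13.72 and 13.76 with DMSO. All CDDO-Me and DMF arrays and 2 of the 3 CDDO-Im arrays lay above the DMSO arrays, but by little. The difference was 0.27 ± 0.15, 0.16 ± 0.16 and 0.15 ± 0.16 (limma adjusted p = 0.459, 0.734 and 0.719), and in the 10 arrays 0.17, 0.18 and 0.16 with adjusted p-values of 0.338, 0.268 and 0.31. A second Ftl1 probe was not detected on any array and was not tested. The Fth1 probe was among the brightest, at raw intensities of 21693.6 to 28184.1 with CDDO-Im, 26512.5 to 31365.1 with CDDO-Me, 25011.3 to 28688.2 with DMF and 23590.1 to 27902.5 with DMSO, where the brightest probe of any array read 26270.9 to 36890.9. Whether signals at this height could still register a rise was not tested.

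Abcb6, a porphyrin transporter of the ABC family, had log2 signals of 10.77, 11.29 and 10.81 with CDDO-Im, 10.81, 10.98 and 10.77 with CDDO-Me, 10.42, 10.40 and 10.38 with DMF, and 9.89, 9.47 and 9.63 with DMSO. The CDDO groups lay highest, DMF between them and DMSO, and no DMSO array reached a treated one. The difference from DMSO was 1.29 ± 0.18 with CDDO-Im and 1.21 ± 0.18 with CDDO-Me, or 2.45-fold and 2.31-fold (limma adjusted p = 0.00552 and 0.0106). With DMF it was 0.76 ± 0.18, or 1.69-fold (limma adjusted p = 0.211), and in the 10 arrays 0.84 ± 0.08 (limma adjusted p = 0.00082). The call with CDDO-Me was lost without CDDO-Me replicate 1, 2 or 3 or without DMSO replicate 3 (limma adjusted p = 0.0966, 0.0642, 0.0503 and 0.0994). Within chip 1 and chip 2 the difference was 1.35 and 1.18 with CDDO-Im, 1.13 and 1.24 with CDDO-Me, and 0.74 and 0.76 with DMF.

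Fech, ferrochelatase, which inserts iron into protoporphyrin to make heme, depended on the arrays that stood apart. Its log2 signals were 8.14, 5.39 and 7.89 with CDDO-Im, 8.26, 8.19 and 8.07 with CDDO-Me, 7.88, 7.75 and 8.05 with DMF, and 8.52, 7.37 and 7.51 with DMSO. CDDO-Im replicate 2, on which the probe was not detected, was the lowest of all arrays and DMSO replicate 1 the highest. With 12 arrays the difference from DMSO was -0.66 ± 0.62 with CDDO-Im, 0.33 ± 0.63 with CDDO-Me and 0.05 ± 0.63 with DMF (limma adjusted p = 0.628, 0.86 and 0.981). With 10 arrays it was 0.58 ± 0.13, 0.75 ± 0.12 and 0.47 ± 0.12 (limma adjusted p = 0.0242, 0.0049 and 0.0465), so the sign with CDDO-Im turned. A second probe gave 0.49, 0.50 and 0.29 in the 10 arrays. Adjusted over probes instead of genes, both probes were called with CDDO-Im and CDDO-Me but not with DMF. The limma adjusted p over probes was 0.0281, 0.0057 and 0.0539 for the brightest probe, and 0.044, 0.0286 and 0.17 for the second. The third, dim probe gave 0.13, 0.31 and 0.08 and was called with none, and the fourth was not detected on any array. Tfrc, the transferrin receptor, had log2 signals of 12.81, 12.05 and 12.76 with CDDO-Im, 12.80, 12.75 and 12.74 with CDDO-Me, 12.83, 12.90 and 12.91 with DMF, and 12.76, 12.59 and 12.74 with DMSO. CDDO-Im and CDDO-Me overlapped DMSO, and the DMF arrays lay just above it. The difference from DMSO was -0.15 ± 0.19, 0.04 ± 0.20 and 0.15 ± 0.20 (limma adjusted p = 0.721, 0.956 and 0.767), and in the 10 arrays 0.13, 0.10 and 0.21 with DMF at an adjusted p of 0.105. A second Tfrc probe gave 0.19, 0.36 and 0.45 with 12 arrays and was not called.

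**Figure D2:**
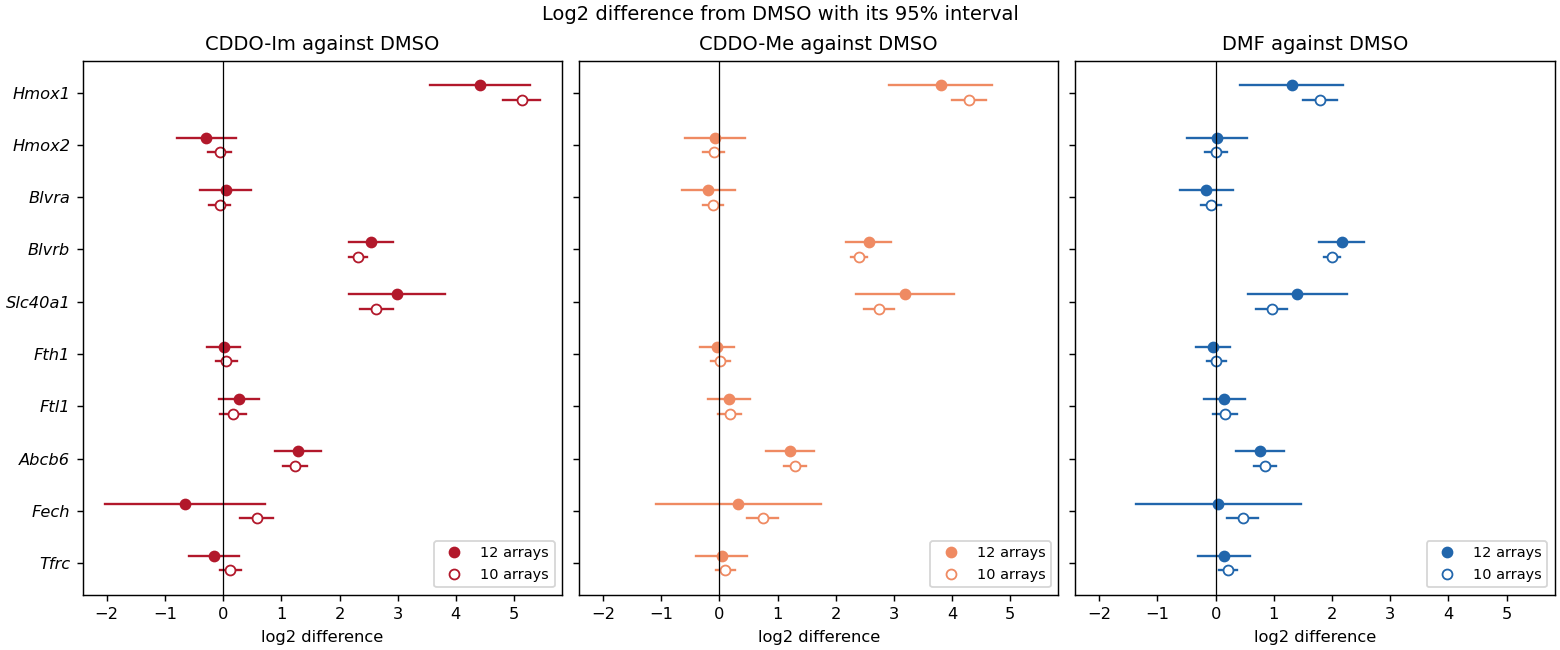
Log2 difference from DMSO of the 10 genes with CDDO-Im, CDDO-Me and DMF, with 95% intervals from limma; filled points are the fit of 12 arrays and open points that of 10. Hmox1 lies farthest right with both CDDO compounds (4.41 and 3.80), Blvrb with DMF (2.17), and Fech with CDDO-Im changes side between the fits (-0.66 and 0.58), as do 4 differences nearer 0 (Tfrc and Blvra with CDDO-Im, Fth1 with CDDO-Me and DMF).

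Set against DMF, both CDDO treatments showed higher Hmox1 and Slc40a1 signals, while Blvrb differed far less. These contrasts set 0.05 µM CDDO-Im and 0.1 µM CDDO-Me against 15 µM DMF. Hmox1 was singled out because its rise was known to differ between compounds, so its difference is given as a description: 3.10 with CDDO-Im against DMF (95% interval 2.22 to 3.99, 8.59-fold) and 2.49 with CDDO-Me against DMF (1.64 to 3.35, 5.63-fold), and 3.34 and 2.49 in the 10 arrays. The CDDO arrays and the DMF arrays did not overlap. Of all genes, 11.1% had every CDDO-Im array above every DMF array, and 12.1% every CDDO-Me array. For Slc40a1, with no overlap either, the differences were 1.58 ± 0.38 and 1.78 ± 0.37 (limma adjusted p = 0.555 and 0.205), and in the 10 arrays 1.67 ± 0.11 and 1.78 ± 0.10 (limma adjusted p = 0.000935 and 0.000103). Abcb6 gave 0.53 ± 0.18 and 0.45 ± 0.18, and in the 10 arrays 0.40 ± 0.08 and 0.45 ± 0.07 (limma adjusted p = 0.0575 and 0.0121). Blvrb gave 0.37 ± 0.17 and 0.40 ± 0.17, and in the 10 arrays 0.32 ± 0.06 and 0.40 ± 0.05 (limma adjusted p = 0.0424 and 0.00542). Its second probe gave 0.41 in both there. Adjusted over probes instead of genes, both Blvrb probes were called with CDDO-Me alone. The limma adjusted p over probes was 0.0626 and 0.00862 for the brightest probe, and 0.0857 and 0.0338 for the second. Of the 9 genes other than Hmox1, limma called 0 against DMF with 12 arrays, and an unadjusted p under 0.05 was found for 2 with CDDO-Im (Slc40a1 and Abcb6) and 3 with CDDO-Me (also Blvrb). At the adjusted threshold in that fit, 0% of all genes passed as higher and 0% as lower with CDDO-Im. With CDDO-Me it was 0.0226% as higher and 0.0678% as lower. The share of all genes at an unadjusted p under 0.05 was not computed. Without DMSO replicate 1, 1 of the 9 was called against DMF with each CDDO compound, where 0.271% of all genes were called with CDDO-Im and 0.595% with CDDO-Me. In the 10 arrays 2 of the 9 were called higher with CDDO-Im (Blvrb and Slc40a1), where 1.15% of all genes were called higher and 0.655% lower. With CDDO-Me 3 were called higher (also Abcb6), where 1.9% of all genes were called higher and 2.3% lower. No member was called lower in either.

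CDDO-Im at 0.05 µM and CDDO-Me at 0.1 µM gave values closer to each other than to those of DMF for Hmox1, Slc40a1, Blvrb and Abcb6. Hmox1 was 0.61 higher with CDDO-Im (95% interval -0.28 to 1.49), with the CDDO-Im replicate 2 value inside the CDDO-Me range. In the 10 arrays, which lack CDDO-Im replicate 2, it was 0.84 higher (0.55 to 1.14) and was not called (limma adjusted p = 0.0606). The 2 CDDO-Im arrays left lay above the 3 CDDO-Me arrays, but the share of all genes that did so was not computed. The other differences of CDDO-Im from CDDO-Me in the 10 arrays were -0.11 for Slc40a1 (95% interval -0.37 to 0.15), -0.08 for Blvrb (-0.22 to 0.06) and -0.06 for Abcb6 (-0.24 to 0.13). Of the 9 genes other than Hmox1, limma called 0 in either fit, and an unadjusted p under 0.05 was found for 0 in the 12 arrays and 0 in the 10. The share of all genes at that unadjusted threshold was not computed. Of all genes, 0% were called higher and 0% lower in the 12 arrays, and 0.12% higher and 0.0151% lower in the 10. A p above the threshold does not show that the compounds act alike, and the doses differ.

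**Figure D3:**
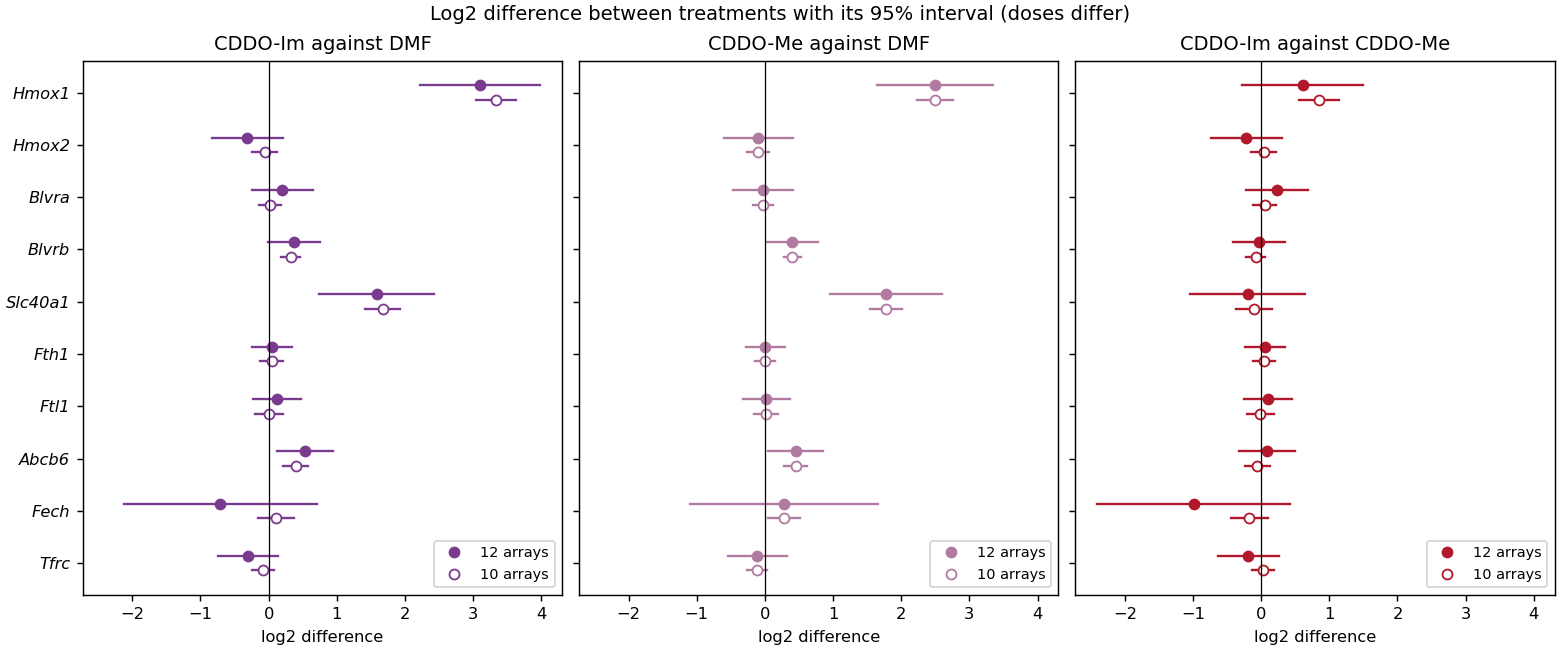
Log2 difference of the 10 genes between treatments, CDDO-Im against DMF, CDDO-Me against DMF and CDDO-Im against CDDO-Me, with 95% intervals from limma; filled points are the fit of 12 arrays and open points that of 10, and doses differ between compounds. Hmox1 (3.10 and 2.49) and Slc40a1 (1.58 and 1.78) lie farthest from 0 against DMF.

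Over the arrays, the member closest to Hmox1 changed with the arrays used. The Pearson correlation of log2 signal with Hmox1 over 12 arrays was 0.915 for Abcb6, 0.86 for Slc40a1 and 0.792 for Blvrb, and over 10 arrays it was 0.93, 0.975 and 0.846. For Fech it was -0.03 over 12 arrays and 0.822 over 10, and for Hmox2, Blvra, Fth1, Ftl1 and Tfrc it ran from -0.325 (Hmox2) to 0.558 (Ftl1) over 12. These correlations describe arrays in 4 treatment groups that share normalization and largely restate the group differences. Among the other genes tested, those most like Hmox1 over the 12 arrays included Scmh1 (0.974), Dubr (0.96), Ahnak2 (0.959) and Plk3 (0.955). Scmh1, a Polycomb group protein, was higher by 1.27 and 1.13 with the CDDO compounds (limma adjusted p = 0.00146 and 0.00426) and differed by 0.56 with DMF (adjusted p = 0.27). Each of these 4 genes had a smaller difference from DMSO than Hmox1 with both CDDO compounds.

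**Figure D4:**
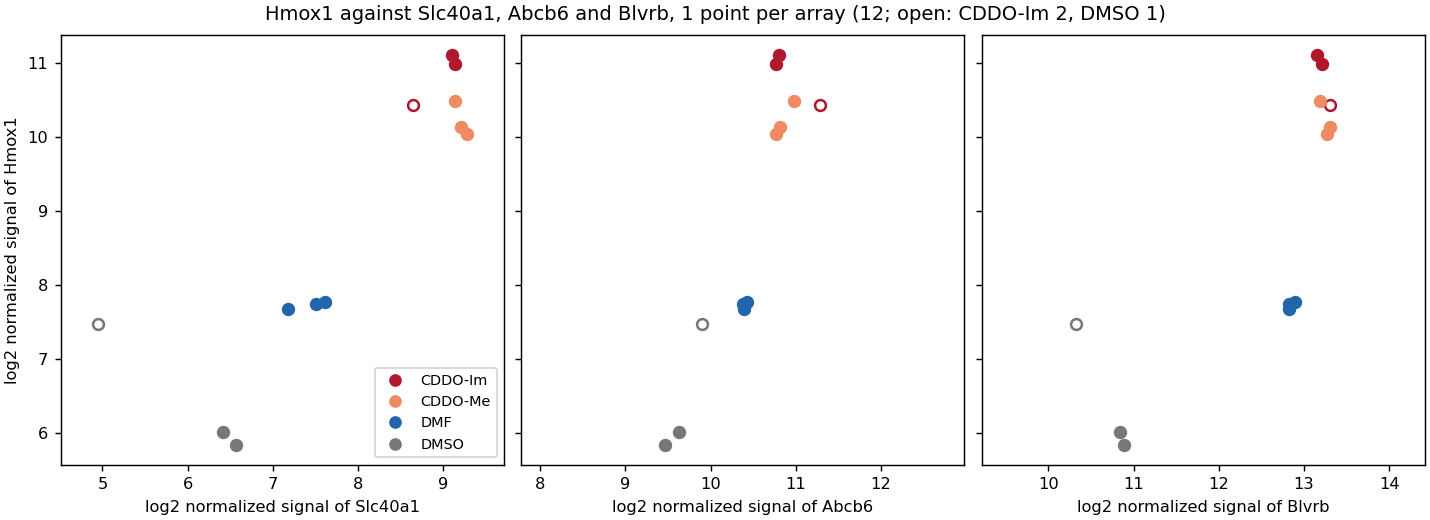
Log2 normalized signal of Hmox1 (vertical) against that of Slc40a1, Abcb6 and Blvrb (horizontal) on the 12 arrays, 1 point per array, open points being CDDO-Im replicate 2 and DMSO replicate 1. With Blvrb the DMF arrays (12.83 to 12.90) lie near the CDDO arrays on the horizontal axis (13.16 to 13.31) but far below them in Hmox1 (7.67 to 7.77, against 10.04 to 11.11).

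A wider list held 53 heme and iron genes, 39 of which passed the filter. With CDDO-Im 6 of the 39 were called higher and 0 lower, where 1.42% of all genes were called higher. With CDDO-Me 5 were called higher and 0 lower, where 1.02% of all genes were called higher. With DMF limma called 0, where 0.324% of all genes were called higher. At an unadjusted p under 0.05 limma gave 6 with DMF, but the share of all genes at that threshold was not computed. The list's median difference was 0.20 with CDDO-Im, 0.15 with CDDO-Me and 0.15 with DMF, where the median of all genes was 0.06, 0.00 and 0.00. The counts in the 10 arrays were 9 higher and 1 lower with CDDO-Im, 9 higher and 1 lower with CDDO-Me, and 6 higher and 0 lower with DMF, where 5.75%, 5.55% and 4.16% of all genes were called higher. For CDDO-Im, 2 genes were called when CDDO-Im replicate 3 was left out and 3 when DMSO replicate 3 was (0.761% and 0.911% of all genes). The count with CDDO-Me was 0 to 3 without any 1 array other than CDDO-Im replicate 2 or DMSO replicate 1, and 0 without CDDO-Me replicate 1 or DMSO replicate 3 (0.316% and 0.482% of all genes). The count with DMF was 1 without CDDO-Im replicate 2 or DMSO replicate 2, and 2 without DMSO replicate 1 (0.911%, 0.459% and 0.813% of all genes).

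Of 7 tested heme synthesis genes, Alas1 and Alad were called. Alas1, the first and rate-limiting enzyme of heme synthesis outside red cells, rose by 0.88 ± 0.14 with CDDO-Im and 0.75 ± 0.14 with CDDO-Me (limma adjusted p = 0.00868 and 0.0286), and with DMF it differed by 0.61 (adjusted p = 0.163; 0.57 and 0.00251 in the 10 arrays). Alad, the second enzyme, rose by 0.70 ± 0.13 with CDDO-Im (limma adjusted p = 0.0239) and was called with all 3 treatments in the 10 arrays (0.66, 0.54 and 0.46). Ppox, the enzyme before ferrochelatase, was lower with CDDO-Im in the 10 arrays only (-0.29, limma adjusted p = 0.0489).

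Among 7 heme transport and binding genes, Slc48a1, which carries heme out of lysosomes, rose by 1.27 ± 0.22 with CDDO-Im and 1.12 ± 0.23 with CDDO-Me (limma adjusted p = 0.0182 and 0.0472). It was called with all 3 in the 10 arrays, at 1.31, 1.31 and 1.01. Flvcr1, first described as a heme exporter, was called only in the 10 arrays, at 0.87 with CDDO-Im and 0.78 with CDDO-Me, and Pgrmc1, a heme-binding membrane protein, only there with CDDO-Me, at 0.53. Of 4 iron uptake genes Hfe alone was called. Hfe, which binds the transferrin receptor and is mutated in hemochromatosis, rose by 1.13 ± 0.16 with CDDO-Im and 1.07 ± 0.17 with CDDO-Me (limma adjusted p = 0.00655 and 0.0128), and differed by 0.22 with DMF (adjusted p = 0.661). Against DMF in the 10 arrays Hfe was higher by 0.81 with CDDO-Im and 0.85 with CDDO-Me (limma adjusted p = 0.00187 and 0.000385).

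None of 3 iron regulatory genes (Aco1, Ireb2 and Fbxl5) or of 3 storage and ferritinophagy genes (Ncoa4, Pcbp1 and Pcbp2) was called in limma in either fit against DMSO. At an unadjusted p under 0.05, limma gave 0 of the regulatory genes with any treatment in the 12 arrays, and 1 storage gene, Pcbp2 with CDDO-Im. With 10 arrays it gave 0 of the regulatory genes again and 1 storage gene, Ncoa4 with CDDO-Im and with CDDO-Me. Of 9 mitochondrial iron genes limma called 0 in the 12 arrays, and 1 had an unadjusted p under 0.05 (Slc25a37 with CDDO-Im). The share of all genes at an unadjusted p under 0.05 was not computed in either fit, so these unadjusted counts have no background beside them. With the 10 arrays Slc25a37, mitoferrin 1, was called with CDDO-Im (0.59) and DMF (0.35), and Slc25a28, mitoferrin 2, was lower with CDDO-Me (-0.24). Of 6 genes of NRF2 and BACH1 control, Bach1 and Mafg were called. Bach1, the heme-sensing repressor of Hmox1, rose by 2.01 ± 0.40 with CDDO-Im and 2.09 ± 0.42 with CDDO-Me (limma adjusted p = 0.0353 and 0.0408), and differed by 0.84 with DMF (adjusted p = 0.661). Bach1 differed by 1.49, 1.61 and 0.36 in the 10 arrays, where the first 2 were called. Mafg, a small MAF partner of both NRF2 and BACH1, rose by 1.19 ± 0.16 and 1.24 ± 0.17 with CDDO-Im and CDDO-Me (limma adjusted p = 0.00494 and 0.00566), and differed by 0.82 with DMF (adjusted p = 0.103). Keap1, which holds NRF2 at a low level, was called only in the 10 arrays, at 0.48 with CDDO-Im, 0.48 with CDDO-Me and 0.31 with DMF. Nfe2l2, which encodes NRF2, was not called, at -1.54 ± 0.78 with CDDO-Im in the 12 arrays and -0.34 in the 10.

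**Figure D5:**
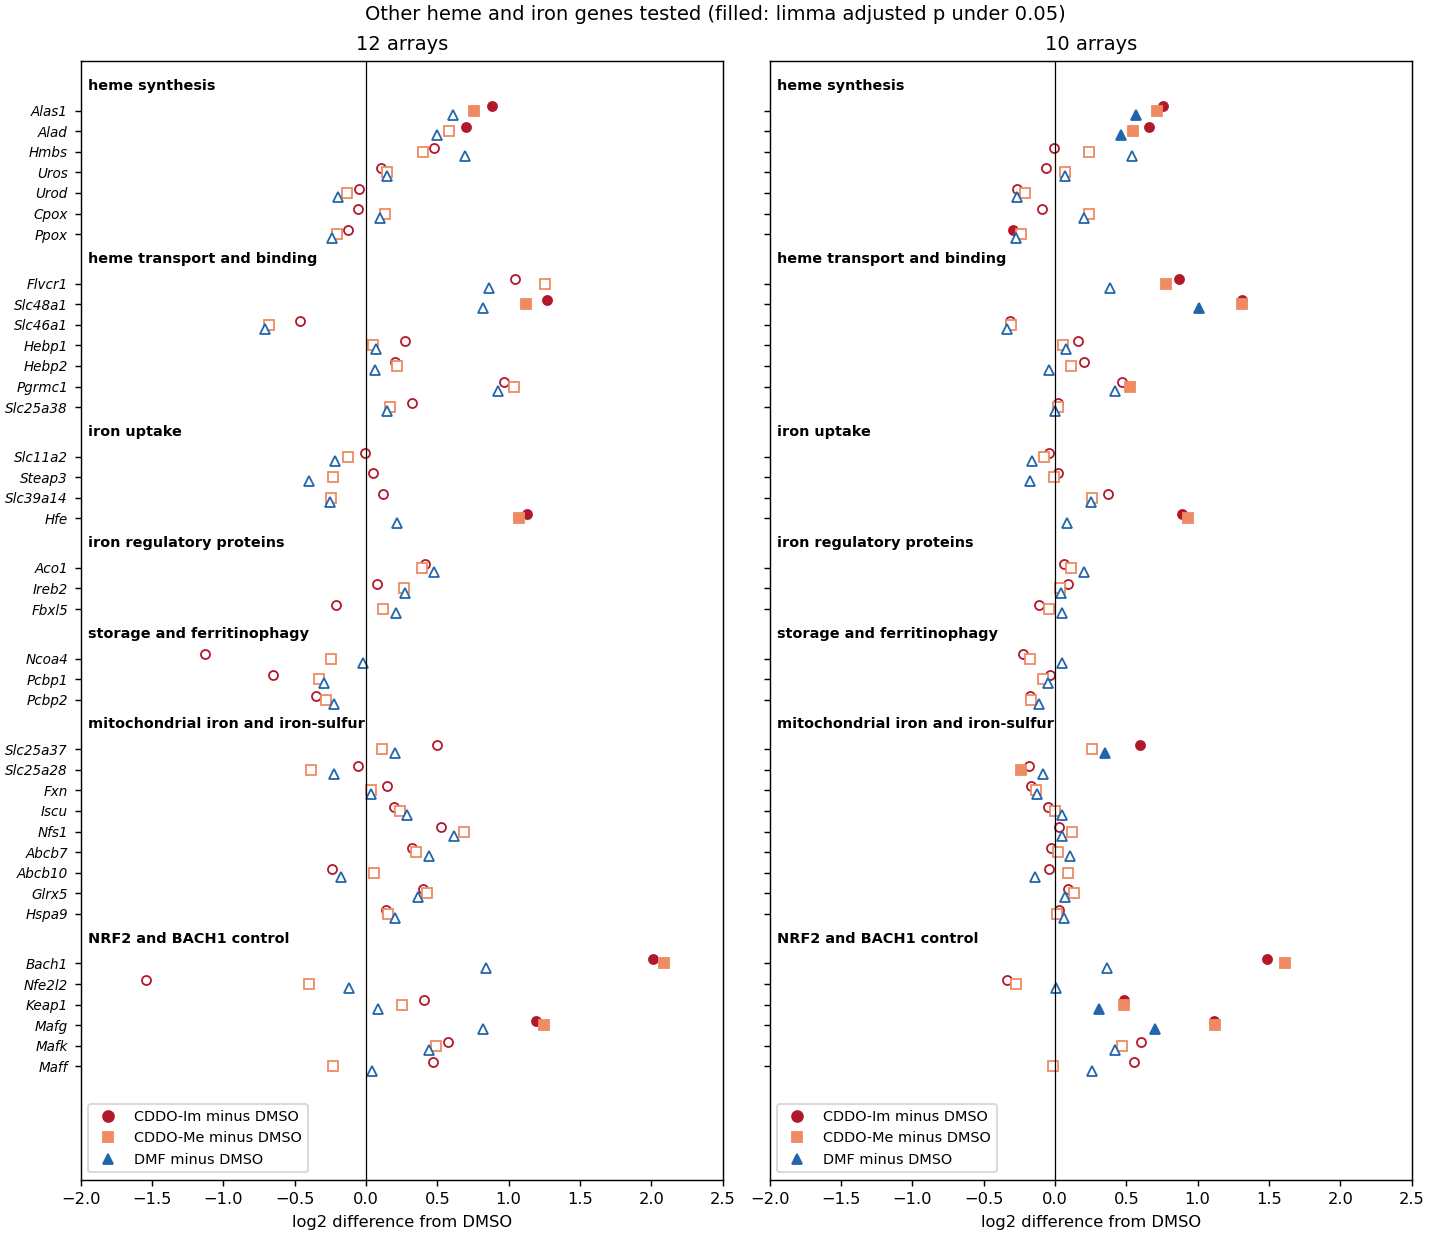
Log2 difference from DMSO of the 39 other heme and iron genes tested, grouped by role, in the fit of 12 arrays (left) and of 10 (right); circles are CDDO-Im, squares CDDO-Me and triangles DMF, and filled symbols have a limma adjusted p under 0.05. Filled symbols lie among heme synthesis (Alas1, Alad), Slc48a1, Hfe, Bach1 and Mafg on the left, with more on the right.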

How the data were processed

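Per the file headers, the deposited intensity values are mean bead signals exported by GenomeStudio (Gene Expression module 1.9.0) with no normalization. The detection p-value of each probe and the count of beads behind each signal were deposited with them. Per the labels, RNA was extracted with an RNeasy kit and biotin-labelled. The authors' normalized matrix of intensity values, whose method is not given in the sources used here, served as an alternative. Its column medians were 170.18 to 172.05.

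Background was corrected with limma's normexp method from the detection p-values (offset 16), followed by quantile normalization and log2. Probes with a detection p under 0.05 on at least 3 arrays were kept, 19211 in all, and the kept probe with the highest mean stood for its gene. Symbols were updated through RefSeq by Entrez number (29586 probes) or accession (2759). The offset understates differences of dim probes. One limma fit (limma 3.58.1, R 4.3.3; 7 residual and 2.87 prior degrees of freedom) held group and chip as terms; tests were two-sided, adjusted by Benjamini-Hochberg over 13280 genes and called under 0.05. All members are named; from the wider list, those called in 12 arrays and up to 6 called only in 10; and the 5 genes most correlated with Hmox1. The 10-array fit, which left out CDDO-Im replicate 2 and DMSO replicate 1, kept the same normalization. Members, lists and this left-out pair were chosen with earlier results of these data known, so no call here is independent support. The median beads per probe were 35 to 41 per array, and 3 arrays per group limit the precision. No 2 arrays held identical values. The tests were checked on simulated data in which each gene had the same spread on all 12 arrays and no chip effect. That check does not cover arrays that stand apart, as CDDO-Im replicate 2 and DMSO replicate 1 did. Alternatives covered background, offset, normalization, filter, probe choice, chip, replicate block, array weights and left-out arrays.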

Additional observations from a re-analysis of the deposited data

How the results depend on the processing

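Hmox1, Blvrb, Slc40a1 and Abcb6 kept the sign of every difference from DMSO that was called with 12 arrays, under each of 15 alternative settings and 12 left-out arrays. The calls were however lost within chip 1 and, except for Blvrb with CDDO-Me, with only the 2 groups compared. Abcb6 with CDDO-Me also lost its call without CDDO-Me replicate 1, 2 or 3 or without DMSO replicate 3. Within chip 1, members called were 0 with CDDO-Im, CDDO-Me and DMF, and the wider list 0 with CDDO-Im and CDDO-Me, but limma called 0 of 13280 genes there in any comparison. With only the 2 groups compared, members numbered 0, 1 and 0 against DMSO and the wider list 0 and 0, where 0.0226%, 0.203% and 0.00753% of all genes were called, and 4 members for CDDO-Me against DMF (3.39%). DMF against DMSO called 2 members within chip 2 (1.11% of all genes), 4 with array weights (23.2%) and 5 with 10 arrays (8.42%), also when these were processed alone. Counts between treatments include Hmox1, whose difference is a description; without it each nonzero count is lower by 1. Against DMF, CDDO-Im called 1 member with no background correction, an offset of 50 or no chip term (0.0301%, 0.0226% and 0.0377% of all genes), 2 in the authors' matrix (0.0904%), 4 with array weights (6.12%) and 3 with 10 arrays (1.81%; 3 processed alone). CDDO-Me called 1 under the first 3 settings (0.0527%, 0.0979% and 0.218%), 2 in the authors' matrix (0.166%) and within chip 2 (0.467%), and 4 with array weights (7.35%) or 10 arrays (4.2%; 4 processed alone). Array weights called 1 member for CDDO-Im against CDDO-Me (1.77%). In the wider list CDDO-Im called 16 with array weights and 10 with 10 arrays (27.6% and 10.8% of all genes), CDDO-Me 15, 10 (10 processed alone) and 3 adjusted over all probes (23.9%, 11.1% and 1.18%), and DMF 15 and 6 (6 processed alone; 23.2% and 8.42%), 3 in the authors' matrix (0.648%) and 1 with cyclic loess, no chip term or chip 2 (0.655%, 0.602% and 1.11%).

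Fech with CDDO-Im turned to 0.42 with array weights, 0.58 with 10 arrays and 0.58 with these processed alone, against -0.66; CDDO-Im replicate 2 and DMSO replicate 1 had weights of 0.0416 and 0.0317, against 0.544 to 4.23 elsewhere. Leaving out each array gave 4 to 4 members with CDDO-Im, 3 to 4 with CDDO-Me and 1 to 2 with DMF. The wider list gave 2 to 7, 0 to 6 and 0 to 2. The shares of all genes called then ran from 0.761% to 2.88%, from 0.316% to 2.46% and from 0.173% to 0.911%. For CDDO-Im and CDDO-Me against DMF it gave 0 to 2 members each, where up to 0.271% and 0.595% of all genes were called. Between the CDDO compounds it gave 0 to 0, where 0% of all genes were called. With the replicate block in place of chip, members called were 4, 4 and 1 against DMSO, and the wider list 6, 4 and 0. The shares of all genes were 1.74%, 1.38% and 0.444%. Between treatments 0 members were called, where the highest share of all genes was 0.00753% (CDDO-Me against DMF). No member's call changed, and Hmox1 differed from DMSO by 4.41, 3.79 and 1.29. Same-numbered arrays correlated from -0.296 to 0.363 in their deviations, with a median of 0.134 against -0.0413 for other pairs. The 6 pairs of replicate 3 arrays, all on chip 2, ran from 0.147 to 0.363, but only 10 of 18 pairs were over 0.1, so the arrays were not treated as paired. The cause of these changes was not tested.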
